A study of Mus musculus with 8 samples.

Results

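The cells described here were 485 mouse embryonic stem (ES) cells from a CX-5461-treated culture, each with a high share of mitochondrial transcripts. They were chosen by their mitochondrial share, as the barcodes of the CX-5461 library with at least 500 UMIs (unique molecular identifiers, each counting 1 captured transcript) and with more than 0.1 and at most 0.2 of those UMIs on the mitochondrially encoded genes, whose symbols start with mt-. The rule took 485 of the 4922 barcodes of that library, and of 8760 barcodes in both libraries. These 485 cells are called members below. The study profiled ICM-derived mouse ES cells grown on gelatin with a feeder layer of mouse embryonic fibroblasts in LIF/2i medium for 2 days. One culture was left untreated (Control) and the other was exposed to CX-5461, an inhibitor of RNA polymerase I, the enzyme that transcribes the ribosomal RNA genes; a dose and exposure time for the single-cell culture are not in the labels. Droplet libraries (10x 3' V2) were read as 1 table of UMI counts per condition, although the labels name 4 samples in each, so condition and library cannot be told apart and no test between groups was possible. Every interval printed is a 95% exact interval that covers counting error only.

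Members were set beside 4174 CX-5461 cells with a share of 0.1 or below and at least 5000 UMIs (low-share CX-5461 cells), and beside 771 Control cells in the range of the members (high-share Control cells). Another 2646 Control cells, chosen like the low-share CX-5461 cells, gave the matching difference inside the untreated library. Levels are given as CPM (counts per 1000000 non-mitochondrial UMIs, summed over a set of cells), and differences as the log2 ratio of CPM. A gene was compared where the mean CPM of the 2 sets was at least 20, and was counted as higher or lower at a 2-fold difference.

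By way of background, mitochondria carry a small genome of their own that encodes subunits of the respiratory chain, and its transcripts stay inside the organelle. The share of these transcripts in a droplet library is widely read as a measure of cell quality, since it grows when cytoplasmic RNA is lost and also when mitochondrial RNA is abundant. The endoplasmic reticulum (ER) receives secreted and membrane proteins as they are made: most carry a hydrophobic stretch near the N terminus that directs the translating ribosome to the ER membrane, so that their mRNAs sit on that membrane rather than in the free cytosol. Hspa5 (also called BiP) is the ER chaperone of the Hsp70 family and a classical target of the unfolded protein response. Lefty1 and Lefty2 are secreted antagonists of Nodal signalling and are expressed in ES cells in a patchy way.

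The first 105 coding bases of 7 genes show the stretch that many of the leading genes shared. They were read from the GENCODE M21 transcripts (GRCm38), and capitals mark the 11 codons with the highest mean Kyte-Doolittle hydropathy where that mean was 2 or more between residues 2 and 35. The first 5 genes stood higher in members and are all secreted, ER or membrane proteins. Ftl1 (ferritin light chain) and Rpl29 (a ribosomal protein) stood lower, are cytosolic, and have no such stretch. The 7 are examples, and not every low gene lacked the stretch. Col1a2, at a log2 ratio of -5.66, was classed as having one.
Hspa5: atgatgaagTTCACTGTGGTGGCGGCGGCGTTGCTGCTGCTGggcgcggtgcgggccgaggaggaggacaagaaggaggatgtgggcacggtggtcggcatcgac
Pdia4: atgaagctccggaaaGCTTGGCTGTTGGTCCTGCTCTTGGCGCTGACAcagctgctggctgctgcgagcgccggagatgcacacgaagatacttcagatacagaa
Ctsl: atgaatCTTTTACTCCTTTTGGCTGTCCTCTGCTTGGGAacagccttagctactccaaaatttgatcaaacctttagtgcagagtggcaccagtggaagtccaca
Cd9: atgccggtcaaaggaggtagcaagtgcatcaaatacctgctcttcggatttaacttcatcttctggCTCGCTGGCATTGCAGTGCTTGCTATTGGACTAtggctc
Lefty2: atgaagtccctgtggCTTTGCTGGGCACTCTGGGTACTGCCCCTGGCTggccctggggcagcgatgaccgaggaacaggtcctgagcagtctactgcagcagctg
Ftl1: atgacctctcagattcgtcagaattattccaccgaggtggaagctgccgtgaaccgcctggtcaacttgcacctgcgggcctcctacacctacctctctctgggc
Rpl29: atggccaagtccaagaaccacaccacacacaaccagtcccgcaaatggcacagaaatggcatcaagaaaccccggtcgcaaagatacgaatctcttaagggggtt

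Members made up 10.3% of the 4697 CX-5461 cells kept at 500 UMIs and a share of at most 0.2 (exact binomial interval 9.47 to 11.2%). High-share cells made up 20.5% of the 3767 Control cells kept in the same way (19.2 to 21.8%). The mitochondrial share of the members, which chose them, ran from 10.01 to 19.98% with a median of 15.9%. The 5 cells just below the lower limit lay between 9.88 and 9.959%, and the 5 just above it between 10.01 and 10.18%. At the upper limit the 5 cells inside lay between 19.9 and 19.98% and the 5 outside between 20.01 and 20.06%. The members were shallower than low-share CX-5461 cells and deeper than high-share Control cells. Their median was 5711 UMIs per cell (quartiles 4668 and 7359), against 14843 in low-share CX-5461 cells and 2056 in high-share Control cells.

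**Figure D1:**
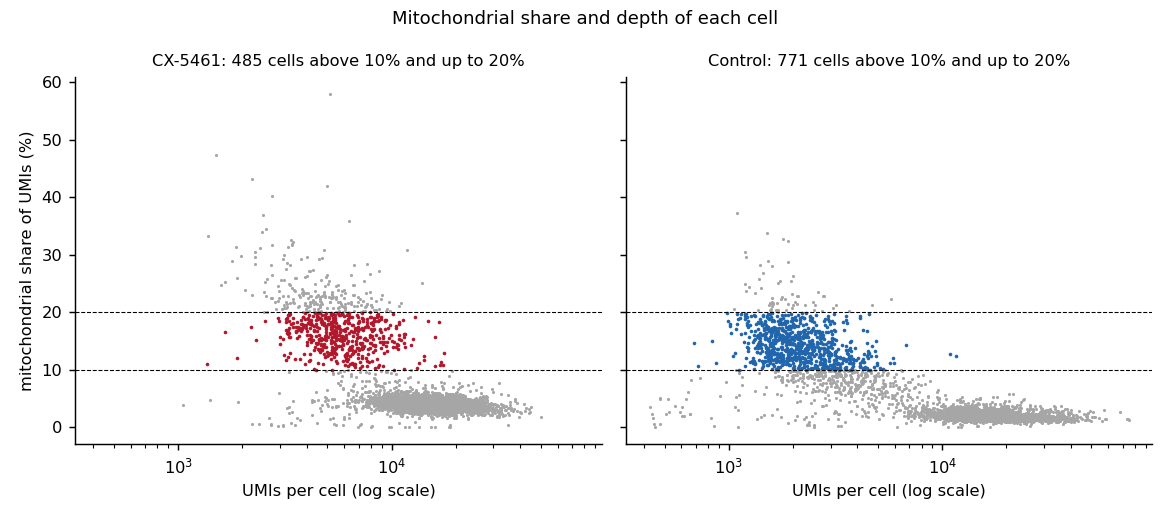
Each point is 1 barcode of the CX-5461 library (left) or the Control library (right), with its UMIs on a log axis and the mitochondrial share of its UMIs in percent; dashed lines mark the limits of the rule. The 485 members (red) and the 771 high-share Control cells (blue) lie at fewer UMIs than the main cloud of each library, with medians of 5711 and 2056 UMIs.

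The rule was met in a different way by the 2 libraries. Members carried a median of 895 mitochondrial UMIs per cell against 591 in low-share CX-5461 cells, and a median of 4799 non-mitochondrial UMIs against 14268.5. Their high share thus held both more mitochondrial and fewer other UMIs per cell. High-share Control cells carried 297 mitochondrial UMIs against 314 in low-share Control cells, and 1768 non-mitochondrial UMIs against 15617.5. In members mt-Atp6, a subunit of ATP synthase, gave 227.0 UMIs per cell against 146.9 in low-share CX-5461 cells. mt-Nd1, a subunit of complex I, gave 150.9 against 73.1 and took 15.3% of mitochondrial UMIs against 11.7%. These values come from the measure the rule used and are descriptions.

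Summed, markers of ES cells stood in the members near the level of low-share CX-5461 cells. The 10 ES cell markers, Pou5f1, Nanog and Dppa5a among them, summed to 8662.0 CPM in members (8548.8 to 8776.3), and none was at 0. Low-share CX-5461 cells stood at 7865.6 and high-share Control cells at 8840.7. Most of each sum was Dppa5a, at 6130.5, 5763.8 and 6866.0 CPM in the same order. The 12 fibroblast markers summed to 56.6 CPM in members (single genes 0.388 to 16.3 CPM, none at 0) against 386.4 in low-share CX-5461 cells, 101.2 in high-share and 310.4 in low-share Control cells. A total of 1 of 485 members (0.206%) had 0.5% or more of its non-mitochondrial UMIs on these markers, against 99 of 4174 low-share CX-5461 cells (2.37%). The 10 primitive endoderm markers summed to 24.8 CPM in members and 24.9 in low-share CX-5461 cells, and Sox17, Sox7 and Foxa2 had no UMI in any member. The 6 macrophage markers summed to 44.2 CPM in members, 27.2 in low-share CX-5461 cells, 15.1 in high-share and 26.9 in low-share Control cells; Cd68, a lysosomal protein, gave 43.8 of the members' CPM, and Ptprc, Lyz2, Csf1r and Tyrobp had no UMI in any member.

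Across 5281 non-mitochondrial genes, 582 were at least 2-fold higher in members than in low-share CX-5461 cells (11%) and 99 at least 2-fold lower (1.87%). The median log2 ratio was 0.28, and 67.9% of genes stood higher by any amount. The split between directions depends on the scaling: of the genes past 2-fold, 85.5% were higher with CPM, 63.4% when scaled to all UMIs, 50.6% with a median-of-ratios factor and 41.1% with a TMM factor, which moved every log2 ratio down by 0.34. Ratios are therefore best read against the median of 0.28.

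Hspa5, on chromosome 2 (34771970 to 34777547, plus strand, GRCm38), had the highest ratio of all compared genes. It stood at 922.8 CPM in members, 143.8 in low-share CX-5461 cells, 687.1 in high-share Control cells and 98.5 in low-share Control cells. The 2 sets with a high mitochondrial share were both high and the 2 others low, with no overlap of their counting intervals. The log2 ratio of members to low-share CX-5461 cells was 2.68 (2.62 to 2.75), and that inside the Control library 2.80 (2.70 to 2.90). Hspa5 was higher per cell as well, at 4.91 UMIs in members against 2.17, although a member held fewer UMIs in all. The median member carried 4 Hspa5 UMIs (quartiles 2 and 7, highest 32) and the median low-share CX-5461 cell 2. With every cell thinned to 2000 non-mitochondrial UMIs, Hspa5 was seen in 77.1% of 480 members (92.6% unthinned) and in 25.8% of 4174 low-share CX-5461 cells (78.4% unthinned); 5 shallower members were left out. Among 187 members matched to as many low-share cells on non-mitochondrial UMIs, the log2 ratio was 1.96.

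**Figure D2:**
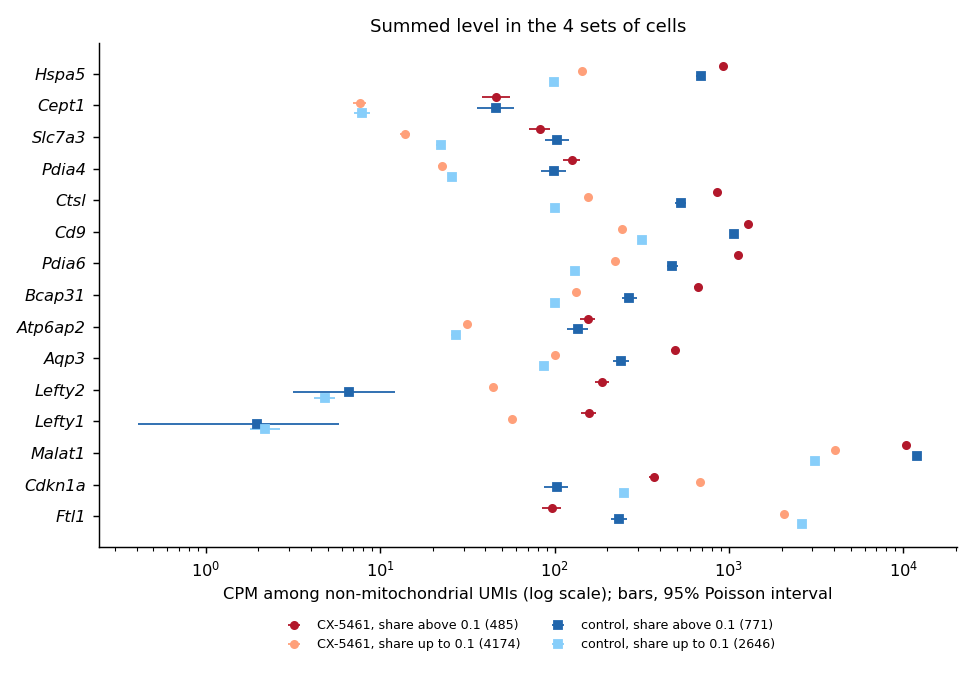
Summed level of 15 named genes in CPM on a log axis, in members (dark red), low-share CX-5461 cells (light red), high-share Control cells (dark blue) and low-share Control cells (light blue), with 95% Poisson intervals. For Hspa5, Pdia4 and Ctsl the 2 high-share sets lie together above the 2 low-share sets, whereas for Lefty2 members stand at 186.9 CPM and high-share Control cells at 6.57 CPM.

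The other genes among the 10 highest ratios also belong to the secretory route or to membranes. Pdia4 and Pdia6 are ER protein disulfide isomerases. Pdia4 stood at 125.6 CPM in members, 22.6 in low-share CX-5461 cells, 99.2 in high-share and 25.8 in low-share Control cells, a log2 ratio of 2.47 within the treated library. Pdia6 stood at 1122.1, 222.3, 472.3 and 130.6 CPM in the same order, a log2 ratio of 2.34. Bcap31, an ER membrane protein, stood at 662.6 CPM against 133.3 (log2 ratio 2.31). Cept1, which makes phospholipids in the ER and nuclear membranes, stood at 46.1 CPM against 7.61 (2.60).

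Lysosomal and surface proteins filled the remaining places. Ctsl, a lysosomal protease that is made at the ER, stood at 852.2 CPM in members, 155.4 in low-share CX-5461 cells, 528.2 in high-share and 100.5 in low-share Control cells, a log2 ratio of 2.46. Cd9, a tetraspanin of the plasma membrane, stood at 1292.7, 242.0, 1065.5 and 318.7 CPM, a log2 ratio of 2.42. Slc7a3, a transporter of cationic amino acids, stood at 82.2 CPM against 13.9 (2.57). Aqp3, a water and glycerol channel, stood at 490.5 CPM against 100.2 (2.29), and Atp6ap2, an accessory subunit of the proton pump, at 154.3 against 31.5 (2.29). All 10 were also higher in high-share than in low-share Control cells, with log2 ratios from 1.42 for Bcap31 to 2.80 for Hspa5.

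Of 25 listed genes of ER chaperones and the unfolded protein response, 18 were abundant enough to compare, and 14 of these 18 were at least 2-fold higher and none lower, beside 11% and 1.87% of all genes. Their median log2 ratio was 1.31 beside 0.28 over all genes, and 0.97 with the TMM factor. Hsp90b1, the ER member of the Hsp90 family, stood at 933.3 CPM against 232.9 (2.00), and Calr, a lectin chaperone that also binds calcium, at 1218.3 against 465.2 (1.39). Pdia3, which works with Calr on glycoproteins, stood at 520.3 CPM against 138.3 (1.91). The lowest of the 18 was P4hb, another disulfide isomerase, at 226.4 CPM against 171.7 (0.40). The mRNA of Xbp1, a transcription factor of the unfolded protein response, stood at 27.5 CPM against 16.3 (0.76). Summed, the list took 0.751% of non-mitochondrial UMIs in members and 0.247% in low-share CX-5461 cells, but 39.9 and 37.2 UMIs per cell. The summed count per cell of these mRNAs was therefore much alike in the 2 sets, while a member held fewer non-mitochondrial UMIs in all.

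The excess of ER chaperone mRNA was spread over the members rather than held by a few. In single cells the list took between 0.0675 and 1.99% of a member's non-mitochondrial UMIs, with a median of 0.713% and a lower quartile of 0.494%. In low-share CX-5461 cells the median was 0.23% and the 90th percentile 0.361%, so that the lower quartile of the members lay above it. The single cells overlapped at the extremes, with a highest value of 1.19% among low-share CX-5461 cells.

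The machinery that brings proteins into the ER and glycosylates them followed the same direction by a smaller amount. Of 24 listed genes 22 were compared, with a median log2 ratio of 0.98. Of these, 11 were at least 2-fold higher and none lower, beside 11% and 1.87% of all genes. Sec62, which aids translocation after translation, stood at 391.2 CPM in members, 105.6 in low-share CX-5461 cells, 873.7 in high-share and 125.4 in low-share Control cells (1.89 within the treated library). Stt3a, the catalytic subunit of an oligosaccharyltransferase, stood at 129.5 CPM against 36.3 (1.84). Ssr2, a subunit of the complex beside the translocation channel, stood at 929.0 against 437.2 (1.09). The small channel subunits Sec61b and Sec61g did not share this direction, at 563.0 CPM against 760.7 (-0.43) and 397.0 against 502.2 (-0.34).

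Among 40 listed cell surface and secreted proteins of ES cells, 29 were compared. Of these, 17 were at least 2-fold higher and none lower, beside 11% and 1.87% of all genes. Their median log2 ratio was 1.18. Spp1, a secreted matrix glycoprotein, stood at 2218.6 CPM in members, 538.0 in low-share CX-5461 cells, 1490.5 in high-share and 424.7 in low-share Control cells (2.04). Cd81, a tetraspanin, stood at 1607.9 CPM against 485.6 (1.73). Slc2a1, the glucose carrier of the plasma membrane, stood at 307.9 against 64.7 (2.25). Bsg, a surface glycoprotein of the immunoglobulin family, stood at 1231.4 against 652.4 (0.92), and Sparc, a secreted matrix protein, at 451.3 against 482.0 (-0.10).

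Enzymes of sterol and fatty acid synthesis, many of them anchored in the ER membrane, were compared for 22 of 26 genes. A total of 9 were at least 2-fold higher and none lower, beside 11% and 1.87% of all genes. Their median log2 ratio was 0.91. Msmo1 and Ebp, membrane enzymes of late cholesterol synthesis, stood at 184.9 CPM against 40.8 (2.18) and at 199.3 against 58.4 (1.77). Mvk, a soluble enzyme early in the pathway, stood at 24.8 CPM against 27.7 (-0.16), and Hmgcs1, which is also soluble, at 48.1 against 36.1 (0.41).

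The class of the encoded protein, which the rule did not use, separated the ratios over the whole table. Proteins were translated from the annotated coding sequences and classed by the hydrophobic stretch shown in capitals above, by a stretch of 19 residues with a mean hydropathy of at least 1.6 elsewhere, or by neither. Of 570 compared genes with an N-terminal stretch, 37.7% were at least 2-fold higher in members, with a median log2 ratio of 0.82. Of 769 with a stretch elsewhere, 20.4% were, with a median of 0.47. Of 3467 with neither, 4.18% were, with a median of 0.19. At least 2-fold lower were 1.93% with an N-terminal stretch, 0.65% with a stretch elsewhere and 1.96% with neither. Inside the Control library the medians of the 3 classes were 0.59, 0.38 and -0.02. The first class took 9.12% of non-mitochondrial UMIs in members and 5.68% in low-share CX-5461 cells, at 484.9 and 856.0 UMIs per cell. Genes with neither stretch took 65.3 and 70.4%, at 3473.0 and 10621.5 UMIs per cell. Every class thus had fewer UMIs in a member, and the first class was less reduced than the last.

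**Figure D3:**
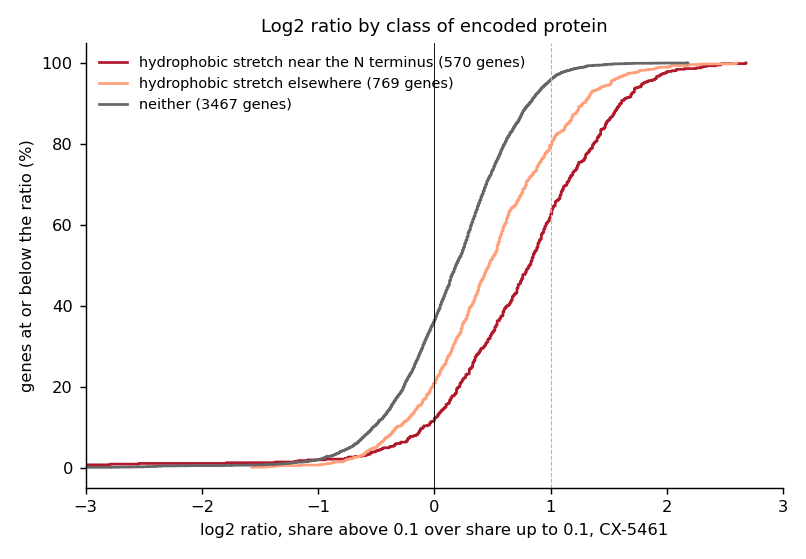
Cumulative percent of genes at or below each log2 ratio of members to low-share CX-5461 cells, for 570 genes whose protein has a hydrophobic stretch near the N terminus, 769 with a stretch elsewhere and 3467 with neither. The 3 curves keep their order over most of the range, with medians of 0.82, 0.47 and 0.19; ratios below the left edge are not drawn.

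Transcript length also moved with the ratio. In the quartile of coding genes with the shortest annotated transcripts (374 to 1767.2 bases) the median log2 ratio was -0.05, and in the other 3 quartiles 0.35, 0.39 and 0.39. The classes remained apart inside each quartile: the medians with an N-terminal stretch were 0.35, 1.04, 0.89 and 0.89 from the shortest to the longest, and with neither stretch -0.12, 0.24, 0.29 and 0.33. The part of length in the gene ratios was not tested.

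Cytosolic ribosomal proteins stood lower, and of the lists compared they differed most in percentage points of UMIs; as a ratio, several lists differed more. The 77 genes took 16.9% of the members' non-mitochondrial UMIs, 24.6% in low-share CX-5461 cells, 23.0% in high-share and 29.3% in low-share Control cells. The median log2 ratio within the treated library was -0.53, and -0.87 with the TMM factor. At least 2-fold lower were 8 genes and higher none, beside 1.87% and 11% of all genes. Lower by any amount were 66 of 77, beside 32.1% of all genes. A member carried 898.5 of these UMIs on average and a low-share CX-5461 cell 3708.6. Rpl29 stood at 62.8 CPM in members, 290.2 in low-share CX-5461 cells, 143.9 in high-share and 448.3 in low-share Control cells (-2.21). Rpl13 stood at 4408.5 against 7801.0 CPM (-0.82). Rpl5, a ribosomal protein that also binds Mdm2 outside the ribosome, went the other way at 252.0 against 127.2 (0.99). Ribosomal protein genes have many processed pseudogenes, and a split of reads between them makes single values uncertain.

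**Figure D4:**
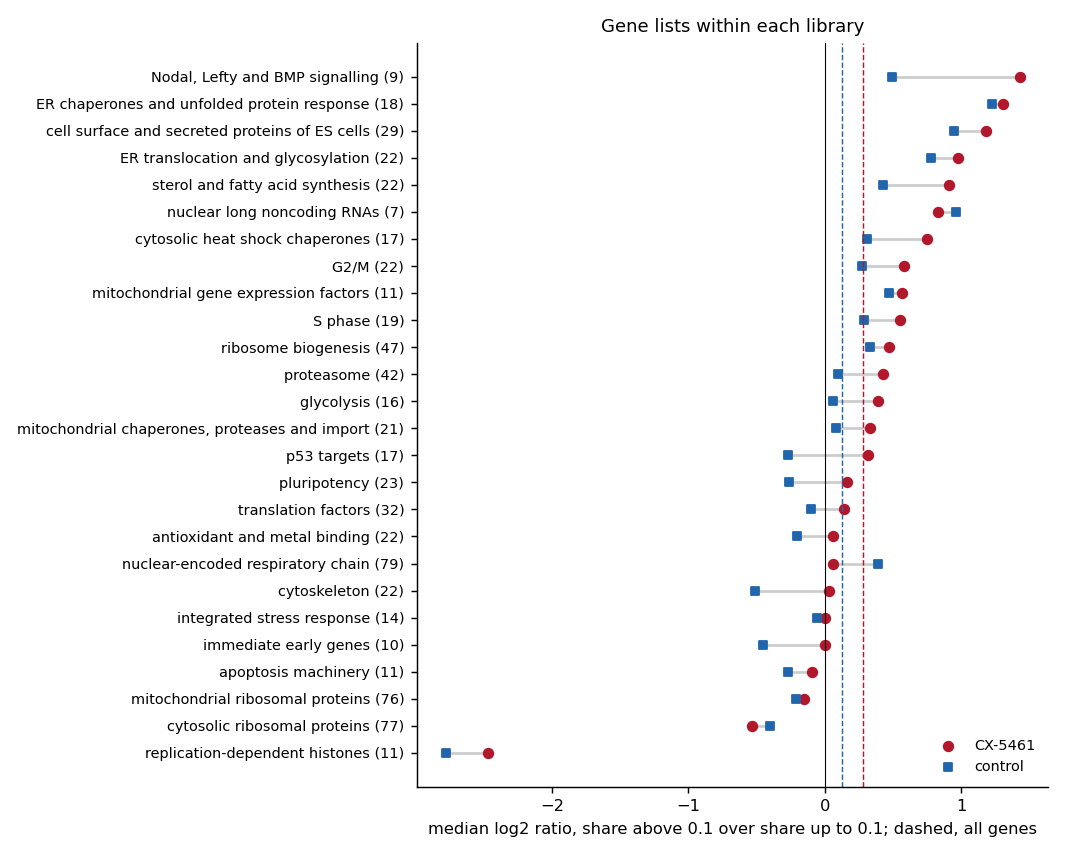
Median log2 ratio of each gene list between high-share and low-share cells, in the CX-5461 library (red circles) and the Control library (blue squares), with the number of genes compared in the CX-5461 library in parentheses and the median over all genes as dashed lines. ER, surface and Nodal lists lie to the right (1.31 for ER chaperones in CX-5461) and ribosomal proteins and histones to the left (-0.53 and -2.47).

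Replication-dependent histones had a low median, and of the lists compared the 4 fibroblast genes alone had a lower one (-2.68). A total of 11 of 70 listed genes were compared, with a median log2 ratio of -2.47. All 11 were at least 2-fold lower, beside 1.87% of all genes. Hist1h2ad stood at 52.0 CPM in members, 287.8 in low-share CX-5461 cells, 92.0 in high-share and 622.8 in low-share Control cells (-2.47). These genes reached the filter chiefly through the low-share cells, where they were abundant; over all histone genes with a UMI in both sets the median was -0.87. Their mRNAs lack a poly(A) tail, which a 3' library needs for capture. Of the cycling genes, 18 of 22 compared G2/M genes and 15 of 19 S phase genes stood higher by any amount, beside 67.9% of all genes. Their median log2 ratios were 0.58 and 0.55 beside 0.28 over all genes, and 0.24 and 0.21 with the TMM factor.

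Ferritin light chain was among the lowest single genes. Ftl1 stood at 96.2 CPM in members, 2073.5 in low-share CX-5461 cells, 235.2 in high-share and 2609.9 in low-share Control cells, a log2 ratio of -4.43. Its copy Ftl1-ps1 stood at 4229.4 against 7136.1 CPM (-0.75). The 2 coding sequences are identical at 99.6% of bases and the Ftl1 transcript shares 80.6% of its 31-base words with the copy, so the value of Ftl1 alone is uncertain. Without the cells that carried fibroblast markers its log2 ratio was -3.42. That cut took 99 cells from the low-share set, and Ftl1 was a leading gene of a fibroblast-like cluster with 163 low-share cells.

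The other genes among the 10 lowest included several that fibroblasts are known to express. Saa3, an acute phase protein, gave 2 UMIs in all members against 60.9 CPM in low-share CX-5461 cells (-6.29, counting interval -9.34 to -4.44). Col1a2, a collagen chain, gave 4 UMIs, or 1.55 against 78.5 CPM (-5.66), and Ccl2, a chemokine, stood at 3.88 against 116.6 (-4.91). H19, an imprinted noncoding RNA, stood at 4.27 against 119.4 (-4.81) and Acta2, smooth muscle actin, at 3.88 against 69.9 (-4.17). The fibroblast markers moved with these genes, at 56.6 CPM summed in members and 386.4 in low-share CX-5461 cells. All 4 compared genes of the fibroblast list were at least 2-fold lower, beside 1.87% of all genes. No gene of that list passed 16.3 CPM in members, so the 4 reached the filter only through the low-share cells and the filter set their direction. Without the fibroblast-marker cells, 99 of them in the low-share set, Saa3 stood at -4.33, Col1a2 at -5.37 and H19 at -4.23, while Hspa5 stood at 2.67. That cut left fibroblast-like cells in the low-share set. When the CX-5461 cells were clustered, 1 cluster had Ccl2, Col1a2, H19, Acta2, Saa3 and Ftl1 among its 10 leading genes. It held 163 low-share cells and 1 member, and 9 fibroblast markers were among its 50 leading genes. The ratios after the cut are thus not free of fibroblasts.

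Lefty2, on chromosome 1 (180893108 to 180899103, plus strand), was the other gene named as a marker of these cells. It gave 482 UMIs in members, or 186.9 CPM, 44.1 CPM in low-share CX-5461 cells, 6.57 CPM from 10 UMIs in high-share Control cells, and 4.79 CPM in low-share Control cells. Both CX-5461 sets stood above both Control sets, and members stood highest. The log2 ratio within the treated library was 2.08 (1.94 to 2.22), and inside the Control library 0.46 (-0.63 to 1.36). Per cell Lefty2 gave 0.994 UMIs in members and 0.666 in low-share CX-5461 cells. Among the depth-matched cells the log2 ratio was 2.01.

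Lefty1, a close paralog of Lefty2 whose reads may in part be shared with it, stood at 157.4 CPM in members, 57.0 in low-share CX-5461 cells, 1.97 from 3 UMIs in high-share and 2.19 in low-share Control cells (1.47 within the treated library). Members with a share of 0.1 to 0.15 gave a lower log2 ratio, 0.68.

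Unlike Hspa5, the Lefty transcripts were held by a minority of members. At least 1 Lefty2 UMI was seen in 154 of 485 members, or 31.8% (27.6 to 36.1%), at a median of 5711 UMIs per cell, and in 28.9% of low-share CX-5461 cells at 14843. Thinned to 2000 non-mitochondrial UMIs, the shares were 20.4% of 480 members (16.9 to 24.3%), 7.47% of low-share CX-5461 cells, and 0.692% of the 289 high-share Control cells deep enough, where 482 were left out. Of 100 CX-5461 cells with fibroblast markers, which should lack Lefty2, 3 had a Lefty2 UMI at a median depth of 24053 UMIs. None did after thinning, which allows a share of up to 3.62%. Lefty1 was seen in 15 of the same 100 cells (8.65 to 23.5%), and in 2 after thinning (0.243 to 7.04%). Thinned in the same way, Lefty1 was seen in 12.3% of members (9.49 to 15.6%) and 7.14% of low-share CX-5461 cells (6.38 to 7.96%). For Lefty1 the thinned intervals of the fibroblast-marker and low-share cells overlap. The 49 members with the most Lefty2 held 63.9% of its UMIs, and the 49 with the most Lefty1 held 86.9%, whereas the corresponding 49 held 29.3% for Hspa5. Low-share CX-5461 cells were much alike in this. A like fraction of them, the 418 cells with the most of each gene, held 64.9% for Lefty2, 83.4% for Lefty1 and 30.5% for Hspa5. The largest count in a member was 15 for Lefty2 and 25 for Lefty1.

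Other genes of the Nodal and BMP pathways lay on both sides. Of 26 listed genes 9 passed the filter, 6 higher and 3 lower by any amount, beside 67.9% and 32.1% of all genes. At least 2-fold higher were 5, Lefty1 and Lefty2 among them, and 2-fold lower none, beside 11% and 1.87% of all genes. The median log2 ratio was 1.43, and over all listed genes with a UMI in both sets it was 0.48. Nodal itself, the ligand, stood at 32.2 CPM in members, 10.3 in low-share CX-5461 cells, 24.3 in high-share and 6.91 in low-share Control cells (1.65). Tdgf1, the co-receptor of Nodal, stood at 888.7, 276.3, 404.7 and 236.9 CPM (1.69), and Gdf3, a related ligand, at 275.7, 102.6, 246.3 and 108.5 (1.43). Id1 and Id3, nuclear targets of BMP signalling, stood at 22.9 against 31.9 CPM (-0.48) and 133.0 against 148.7 (-0.16). Nodal, Tdgf1 and Gdf3 encode secreted or membrane-bound proteins, and Id1 and Id3 do not.

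Nuclear long noncoding RNAs took a larger share of the members' UMIs. Malat1, which stays in the nucleus at speckles, stood at 10338.9 CPM in members, 4037.1 in low-share CX-5461 cells, 12020.8 in high-share and 3106.3 in low-share Control cells, a log2 ratio of 1.36 within the treated library. Per cell it gave 55.0 UMIs in members and 60.9 in low-share CX-5461 cells, beside medians of 4799 and 14268.5 non-mitochondrial UMIs. Kcnq1ot1, an imprinted nuclear RNA, stood at 255.1 against 110.8 CPM (1.20), and Meg3 at 682.4 against 384.5 (0.83). Of 7 compared genes of this list 6 stood higher, beside 67.9% of all genes, and 2 of them past 2-fold, beside 11%.

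The pluripotency genes lay near the median of all genes. Of 26 listed, 23 were compared, with a median log2 ratio of 0.16 (-0.19 with the TMM factor). Of these, 3 were at least 2-fold higher and none lower, beside 11% and 1.87% of all genes. Pou5f1 stood at 654.9 CPM in members and 736.9 in low-share CX-5461 cells (-0.17), and Nanog at 263.3 and 223.2 (0.24). Thinned to equal depth, Pou5f1 was seen in 71.2% of members and 72.0% of low-share CX-5461 cells, and Nanog in 35 and 34.6%. Klf2, a naive pluripotency factor, stood lower at 27.9 against 54.4 CPM (-0.96).

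Targets of p53, which is known to be stabilized when ribosome production is blocked, stood higher in members than in high-share Control cells, and on either side of low-share CX-5461 cells. Cdkn1a, the cell cycle inhibitor p21, stood at 369.1 CPM in members, 677.7 in low-share CX-5461 cells, 102.5 in high-share and 251.2 in low-share Control cells. For Cdkn1a the log2 ratio of members was -0.88 to low-share CX-5461 cells and 1.85 to high-share Control cells. Bax, which permeabilizes the mitochondrial outer membrane, stood at 646.4, 1020.5, 311.4 and 607.5 CPM in the same order (-0.66 within the treated library). Mdm2, the ligase that degrades p53, stood at 175.6, 140.4, 54.5 and 49.4 (0.32). Of 26 listed targets 17 were compared. Of these, 2 were at least 2-fold higher than in low-share CX-5461 cells and none lower, beside 11% and 1.87% of all genes. Their median log2 ratio was 0.32 beside 0.28 over all genes, and -0.02 with the TMM factor.

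Stress programmes other than the ER chaperones gave mixed values. Of 14 compared genes of the integrated stress response 7 stood higher and 7 lower by any amount, beside 67.9% and 32.1% of all genes. Their median log2 ratio was 0.00 beside 0.28 over all genes. At least 2-fold higher were 2 and lower 1, beside 11% and 1.87% of all genes. Atf4, the transcription factor of that response, stood at 84.1 CPM against 107.5 (-0.35), and Ddit3 (CHOP), which marks severe ER stress, at 15.9 against 29.5 (-0.89). Thinned to equal depth, Ddit3 was seen in 3.75% of members (2.24 to 5.86%) and 4.24% of low-share CX-5461 cells (3.65 to 4.9%), intervals that overlap. It was seen in 34.0% of the 100 CX-5461 cells with fibroblast markers, of which the low-share set held 99. Slc3a2, a membrane subunit of amino acid transporters, stood at 454.8 against 160.1 (1.51), and Asns, a cytosolic enzyme, at 529.3 against 248.2 (1.09). Cytosolic heat shock chaperones had a median of 0.75 over 17 genes. Of these, 2 were at least 2-fold higher and none lower, beside 11% and 1.87% of all genes. Hsp90aa1, the inducible cytosolic Hsp90, stood at 5832.7 CPM against 3467.4 (0.75). Of 11 compared genes of the apoptosis machinery 2 were at least 2-fold higher and none lower, with a median of -0.09.

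Lists of nuclear genes of the mitochondrion had medians on both sides of that of all genes. Of 86 listed respiratory chain genes 79 were compared, with a median log2 ratio of 0.06 (-0.28 with the TMM factor). Of these, 5 were at least 2-fold higher and 1 lower, beside 11% and 1.87% of all genes. Summed, the list took 4.2% of non-mitochondrial UMIs in members and 3.57% in low-share CX-5461 cells. In high-share and low-share Control cells it took 4.92 and 3.24%. The median inside the Control library was 0.39, beside 0.13 over all genes. Ndufa9, a complex I subunit, stood at 340.8 CPM in members against 109.3 (1.64), Atp5b, the catalytic subunit of ATP synthase, at 2072.4 against 1037.5 (1.00), and the small subunit gene Atp5e at 95.8 against 266.7 (-1.48). Mitochondrial ribosomal proteins had a median of -0.15 over 76 genes, with 1 past 2-fold in each direction. Mitochondrial chaperones, proteases and import factors had a median of 0.33 over 21 genes, with 5 higher and none lower.

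The counts of the remaining lists stand beside 11% of all genes at least 2-fold higher and 1.87% lower. Proteasome genes had a median log2 ratio of 0.43 over 42 genes (3 at least 2-fold higher). Ribosome biogenesis genes had 0.47 over 47 (4 higher), and mitochondrial gene expression factors 0.57 over 11 (3 higher), with none lower in any of the 3. Glycolysis had 0.39 over 16 genes (3 higher), although Gapdh stood at 1417.2 CPM in members against 2506.0 (-0.82). Translation factors (0.14 over 32 genes, none past 2-fold), antioxidant genes (0.06 over 22, 1 in each direction), cytoskeleton (0.03 over 22, 3 lower) and immediate early genes (0.00 over 10, 1 higher) lay below the median of all genes. The 2C genes, transcripts of the 2-cell embryo that a small fraction of ES cells express, had 2 of 34 listed genes compared. Their 19 markers summed to 66.3 CPM in members, 35.7 in low-share CX-5461 cells, 64.4 in high-share and 5.29 in low-share Control cells, and at equal depth 2.92% of members (1.6 to 4.85%) and 2.16% of low-share CX-5461 cells (1.74 to 2.64%) carried them. Those intervals overlap, and the 2C UMIs came from 18 members; among the depth-matched cells the log2 ratios of the 2 compared genes reversed, from 1.08 to -3.61 for Gm5662 and from 0.87 to -4.69 for Gm8300.

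The contrast within the Control library used other cells than the contrast within the CX-5461 library. Of 4357 genes compared there, 15.4% were at least 2-fold higher in high-share cells and 5.9% lower, with a median log2 ratio of 0.13. Over the 4142 genes compared in both libraries the log2 ratios had a Pearson r of 0.758 and a Spearman rho of 0.743, and 3146 genes (76.0%) had the same sign. This is a description across genes, which are not replicates and share the library, the protocol and the difference in depth between high-share and low-share cells.

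Members were then compared with high-share Control cells, which holds the mitochondrial range fixed. Of 5065 genes 20.7% were at least 2-fold higher in members and 6.81% lower, with a median log2 ratio of 0.42. Of the genes past 2-fold 75.2% were higher with CPM, 43.7% with the TMM factor and 43.2% with the median-of-ratios factor. The 2 sets differed in depth, with medians of 4799 and 1768 non-mitochondrial UMIs. Inside the range their mitochondrial shares also differed, with medians of 15.9 and 13.96%. With 140 cells of each set matched on depth (medians 3474 and 3141), 22.9% of genes were at least 2-fold higher and 8.18% lower, with a median of 0.35. The library cannot be told apart from the treatment.

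The highest ratios in that comparison were of genes that high-share Control cells lacked almost entirely, and the low-share cells of the 2 libraries differed in the same genes. H2-Eb1, a class II histocompatibility chain, stood at 223.3 CPM in members and at 0.657 CPM from 1 UMI in high-share Control cells, a log2 ratio of 8.41 (5.93 to 13.72); low-share CX-5461 cells stood at 110.5 and low-share Control cells at 2.78. Matn1, a cartilage matrix protein, stood at 180.7 against 0.657 CPM (8.10), with 51.0 and 0.263 in the low-share sets. Krt7, a keratin, stood at 145.4 against 0.657 (7.79), with 175.2 and 1.29 in the low-share sets. Lefty1 followed with a log2 ratio of 6.32 and Lefty2 stood at 4.83.

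Most p53 targets stood higher in members than in high-share Control cells. Of 15 compared, 13 were at least 2-fold higher, beside 20.7% of all genes, and none lower, with a median log2 ratio of 1.69 beside 0.42 over all genes. The low-share cells of the libraries differed likewise: 9 of 13 compared targets were at least 2-fold higher in low-share CX-5461 cells than in low-share Control cells, beside 10.8% of all genes, with a median of 1.43 beside 0.24. Btg2, an antiproliferative target, stood at 193.9 CPM against 14.5 (3.75), Phlda3 at 243.9 against 59.1 (2.04) and Ccng1 at 338.1 against 95.3 (1.83). The 18 compared ER chaperone genes had a median of 0.63, with 6 at least 2-fold higher and none lower, beside 20.7% and 6.81% of all genes. Within them Pdia6 stood at 1.25 and Pdia3 at 1.02, and Canx, a membrane-bound lectin chaperone, at 0.00 (-0.14 to 0.15). With cells of at least 5000 UMIs on both sides, which left 327 members and 8 Control cells, the median was 0.78 for the p53 targets and 0.01 for the ER chaperones. Of the 77 ribosomal protein genes 21 were at least 2-fold lower in members, beside 6.81% of all genes, and none higher, with a median of -0.41. Between the low-share sets 15 of the 77 were at least 2-fold lower in CX-5461 cells, beside 4.04% of all genes, and none higher, with a median of -0.22. In the class comparison the medians were 0.55 with an N-terminal stretch, 0.49 with another and 0.45 with neither, so these classes lay closer together here than within a library. The 487 compared genes without a classed protein had a median of -0.43, and 29.4% of them were at least 2-fold lower, beside 6.81% of all genes.

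The values changed along the mitochondrial share, also inside the range of the members. In the CX-5461 library Hspa5 stood between 126.0 and 144.8 CPM in the 3 bins up to a share of 0.06, at 221.4 at 0.06 to 0.08 and at 692.2 at 0.08 to 0.1, a bin of 37 cells. In the 4 bins of the members, of 64, 113, 157 and 151 cells, it stood at 750.5, 891.4, 931.6 and 1039.1 CPM. The 225 CX-5461 cells above the range stood at 1167.5. Lefty2 stood at 93.8 and 138.4 CPM in the 2 bins below the members and between 177.4 and 193.2 in their 4 bins, whose intervals overlap. The share of ribosomal protein UMIs went from 18.9 to 16.1% over the members' bins. The median depth of the bins went from 6482 to 5320 UMIs per cell at the same time, and its part in these values was not tested. In the Control library Hspa5 reached 509.0 CPM already at 0.06 to 0.08 and lay between 645.7 and 768.1 in the range of the members, while Lefty2 stayed between 0 and 10.6 CPM in all 10 bins.

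**Figure D5:**
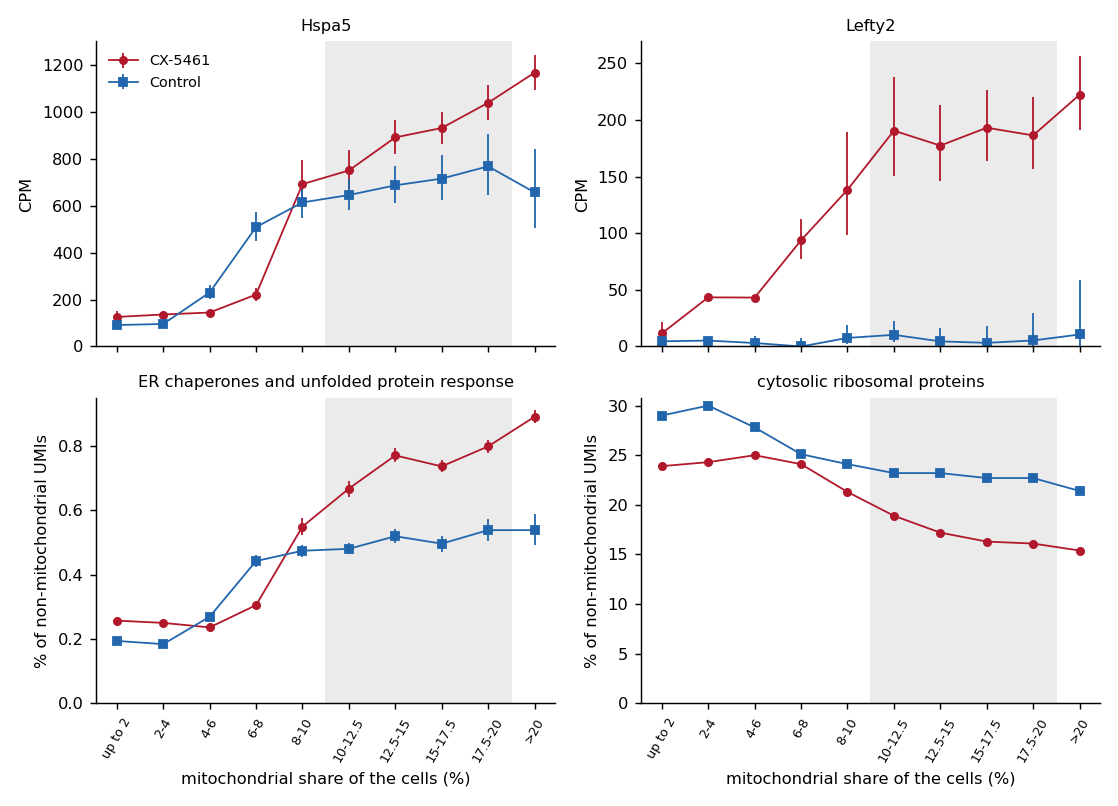
Level of Hspa5 and Lefty2 in CPM and share of 2 gene lists in percent of non-mitochondrial UMIs, by mitochondrial share of the cells, in the CX-5461 (red circles) and Control (blue squares) libraries, with 95% counting intervals; the grey band is the range of the members. Hspa5 goes from 750.5 to 1039.1 CPM over the members' bins and Lefty2 stands well above the Control library in each of them.

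The members also stood together when the CX-5461 cells were clustered without the genes whose symbols start with mt-. Nuclear copies of mitochondrial genes were not left out. These copies took 0.453% of non-mitochondrial UMIs in members and 0.115% in low-share CX-5461 cells, so the clustering was not free of the measure that chose the members. A single cluster of 500 cells, of 9, held 452 members (93.2%), which were 90.4% of that cluster. Its median was 5963.5 UMIs per cell, and that of every other cluster was 12241 or more. The part of depth and of the copies in the grouping was not tested. The 33 other members were spread over the remaining 8 clusters, with 1 to 10 in each. As a description, since clustering used these genes, Hspa5 stood at 956.3 CPM in the 452 members inside the cluster and 387.8 in the 33 outside, and ribosomal proteins took 16.7 and 20.1% of UMIs. The cluster also held 43 low-share cells with a median mitochondrial share of 8.07%, in which Hspa5 stood at 585.7 CPM and Lefty2 at 135.3. The lower limit of the rule therefore did not fall at the edge of the group of cells it selected.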

How the data were processed

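Single-cell RNA-seq was performed by the authors on untreated and CX-5461-treated mouse ES cells with 10x 3' V2 reagents. The deposited tables hold raw UMI counts per gene and barcode, 1 table per condition; per the labels the genome was mm10 and Seurat 2.3.4 was used, and a published droplet pipeline made the counts. For repeat sequences the study's methods replaced Bowtie with HISAT2 in that pipeline and kept all mapped reads; whether the gene tables were made in this way, and the strand setting, are not given in the sources used here. Barcode names are serial numbers in each table, so shared barcodes could not be counted, and the 4 labelled samples per condition could not be told apart. The authors' stated filter (500 or more UMIs, mitochondrial share up to 0.2) left more cells here than their figure legends name. The tables' totals were 69841836 UMIs for CX-5461 and 49610287 for Control.

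Gene IDs were matched to GENCODE M21 (54079 of 54146). UMIs were summed over each set of cells, scaled to non-mitochondrial UMIs, and compared as log2 ratios with exact conditional binomial intervals (Python 3.11.15, numpy 2.4.6, scipy 1.17.1); sums have Poisson and shares Clopper-Pearson intervals. The steps were tested on simulated data. Cells were clustered with scanpy 1.11.5 (2000 variable genes, 16 components, 15 neighbours, resolution 0.5). Doublets were not removed: Scrublet called 4 CX-5461 cells and 1 Control cell, a rate at which its calls are of no use. Members and gene lists were chosen with earlier results of these data known. Named were Hspa5 and Lefty2, the 10 highest and 10 lowest log2 ratios of each comparison, of each list the extremes and up to 4 abundant genes, and markers; Pdia3, Canx, Xbp1, Stt3a, Nodal, Ddit3, Mdm2, Id1, Hmgcs1, Ftl1-ps1, Lgals3, Cryab, Ttll3, Zscan4-ps3 and Emp3 were chosen after their values were seen. Alternatives were other scalings, filters, ranges, depth-matched cells and cells left out; leaving out copies of mitochondrial genes was added after seeing the data. The coding sequence of 1 gene is not reported here.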

Additional observations from a re-analysis of the deposited data

Results flagged for a closer look

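In 4 of the 166 named genes compared in both libraries, the difference between high-share and low-share cells had opposite signs in the CX-5461 and Control libraries, with both counting intervals clear of 0, also after the median of all genes was subtracted. Neat1, a nuclear noncoding RNA, had a log2 ratio of 0.51 in CX-5461 cells (0.31 to 0.71) and -1.02 in Control cells (-1.49 to -0.59), or 0.23 and -1.15 less the median. Tfam, which packages mitochondrial DNA, had 0.53 and -0.43. Sec61g, a subunit of the ER channel, had -0.34 and 0.28, and Sparc, a secreted matrix protein, -0.10 and 0.47. The difference between the libraries was not tested for any of the 4, since each condition is 1 library.

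A signal outside the comparisons was that of Lefty2 in the 225 CX-5461 cells above a mitochondrial share of 0.2, which the rule leaves out. It stood at 222.3 CPM there (191.5 to 256.6, from 186 UMIs), above the 10.6 CPM of the 63 Control cells above that share, which rests on 1 UMI.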

How the results depend on the processing

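No paired analysis was possible because barcodes carry no sample, so the replicate numbers of the labels could not be used, and no replicate could be left out. Against low-share CX-5461 cells, the genes at least 2-fold higher numbered 224 with the TMM factor, 328 scaled to all UMIs, 274 with median of ratios, 319 at a mean CPM of 50 and 3672 with no filter, beside 582; those lower numbered 321, 189, 267, 62 and 1070 in that order and 152 with depth-matched cells, beside 99. List medians that moved were Nodal signalling (0.48 with no filter, 0.75 for shares of 0.1 to 0.15), histones (-0.87 with no filter) and, with depth-matched cells, the 2C genes (-4.69 over 3 genes beside 0.98 over 2) and fibroblast genes (-3.34 beside -2.68); Gm5662 (-3.61) and Gm8300 (-4.69) reversed with depth-matched cells. Against high-share Control cells, the genes higher numbered 493 with the TMM factor, 489 with median of ratios, 464 at a mean CPM of 50 and 3853 with no filter, beside 1048; those lower numbered 636, 644 and 1334 (TMM, median of ratios, no filter) and 1137 at 5000 UMIs or more, beside 345. At 5000 UMIs or more, which left 8 Control cells, the p53 median was 0.78 and that of ER chaperones 0.01, and Eda2r (-0.50), Hsp90ab1 (0.02), Junb (-0.42), Mrps35 (-0.15), Zfp42 (0.16) and Neat1 (-1.19) reversed; so did Gm8300 (-3.70) with depth-matched cells and Col1a2 (0.24) without the 5% of cells with most UMIs. The scalings move every ratio by a constant and the filters change the genes tested; the cause of the other moves was not tested. For the lists run under every setting, another 117 medians against low-share CX-5461 cells and 54 against high-share Control cells, each under another setting, differed by less than 1.5-fold from the main value. The rule gave 485 members at 1000 UMIs or more, 327 at 5000 or more and 488 with protein-coding mitochondrial genes only. A stretch threshold of 2.5 gave 305 genes with a median of 0.88, of which 40.7% were past 2-fold. Depth limits genes with few UMIs, and 1 library per condition leaves no measure of spread between cultures.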

Other observations

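The change in the difference between high-share and low-share cells from the Control to the CX-5461 library was also ranked over all compared genes. The highest values, as log2 ratio in CX-5461 less that in Control, were Lgals3, a secreted galectin, at 2.46 (1.69 to 3.22) and Cryab, a small heat shock protein, at 2.40 (1.71 to 3.10). Lgals3 stood at 39.2 CPM in members and 32.2 in low-share CX-5461 cells, and at 10.5 and 47.5 CPM in high-share and low-share Control cells. Cryab stood at 83.0 and 195.2 CPM in the CX-5461 library and at 11.8 and 147.1 in the Control library. Ttll3 followed at 2.31 and Emp3, a membrane protein, at 1.96, the latter with 110.9 and 87.5 CPM against 17.7 and 54.3. The high-share Control values of Lgals3, Cryab, Ttll3 and Emp3 rest on 16, 18, 17 and 27 UMIs. The lowest values were of Col1a2 at -4.41, of Zscan4-ps3, annotated as protein-coding, at -3.49 and of H19, a noncoding RNA, at -2.47.

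Nuclear copies of mitochondrial genes, which the rule did not count as mitochondrial, took 0.453% of non-mitochondrial UMIs in members, 0.115% in low-share CX-5461 cells, 0.545% in high-share and 0.0639% in low-share Control cells. Without these 7 genes, 586 genes were at least 2-fold higher in members than in low-share CX-5461 cells and 97 lower.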
